A study of Mus musculus with 8 samples.

Results

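The 7 genes described here, H2-Aa, H2-Ab1, H2-Eb1, Cd74, H2-DMa, H2-DMb1 and Ciita, build, load and switch on MHC class II, and were taken by name from the 32285 genes of the deposited count table. Their levels were measured in the immune cells of beta cell grafts by droplet single-cell RNA sequencing, which counts unique molecular identifiers (UMIs) at transcript ends. The grafts were NIT-1 cells, an insulin-producing line that came from a tumor of NOD beta cells, either WT or mutant for Rnls (Rnlsmut), placed under the skin of NOD.scid mice on opposite flanks. All hosts received splenocytes from recently diabetic NOD mice, and living CD45+ cells were sorted from the grafts 10 or 17 days after that transfer. The groups were WT day 10, Rnlsmut day 10, WT day 17 and Rnlsmut day 17, with 4 grafts each, 16 grafts and 22441 cells in all. The 4 grafts of a group carried different hashtag antibodies and shared 1 library, so a genotype at a day, or a day within a genotype, cannot be told apart from its library. NOD.scid hosts lack T and B cells but keep myeloid cells, so the myeloid cells here may come from the host or from the transferred spleen. Rnls was mutated in the graft cells, which the sort removed, so the targeted gene cannot check the labels.

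MHC class II molecules display peptides from the endosome to CD4 T cells. An alpha and a beta chain (H2-Aa with H2-Ab1 for I-A, H2-Eb1 as the beta chain of I-E) assemble on the invariant chain Cd74, which fills the groove until it is cut down to a fragment, and H2-DM (H2-DMa with H2-DMb1) exchanges this fragment for peptide. Ciita is the transactivator that these promoters depend on, it is inducible by interferon gamma, and it acts through RFX and NF-Y bound to promoter elements named the X and Y box. NOD mice carry an I-A variant tied to their diabetes and make no I-E at the surface for lack of its alpha chain, so H2-Eb1 is read here as a transcript only.

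In the GRCm38 annotation, 5 of the 7 members lie within 197134 bases of the MHC on chromosome 17. In order, these are H2-DMa at chr17:34119541-34139101, H2-DMb1 at chr17:34153072-34160230, H2-Ab1 at chr17:34257689-34269419, H2-Aa at chr17:34282744-34287823 and H2-Eb1 at chr17:34305867-34316674. H2-Aa alone of these is on the minus strand. The 150 bases before the RefSeq start (GRCm38.p6) of both chain genes with a promoter entry are shown for their X and Y boxes, 5′ to 3′ on the gene's own strand, with a Y box of the letters TGATTGG or an X box of the letters AACNGATG in capitals. The H2-Aa sequence is chr17:34287824-34287973 read on the minus strand and the H2-Eb1 sequence is chr17:34305717-34305866 on the plus strand.
H2-Aa: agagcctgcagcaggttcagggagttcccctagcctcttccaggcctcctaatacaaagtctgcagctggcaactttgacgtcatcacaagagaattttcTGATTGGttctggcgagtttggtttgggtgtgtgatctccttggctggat
H2-Eb1: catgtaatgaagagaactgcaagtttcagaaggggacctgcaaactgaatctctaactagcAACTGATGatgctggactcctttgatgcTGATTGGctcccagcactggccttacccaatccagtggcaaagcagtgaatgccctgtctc

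The Y box ended 43 bases before the start of H2-Aa and 54 bases before that of H2-Eb1. H2-DMb1 held both boxes too, with the Y box ending 56 bases before its RefSeq start, inside the first exon that GENCODE gives the gene. Its X box and the bases up to the Y box are set beside those of H2-Eb1, since their first 13 letters are the same, and the gap between the boxes was 21 bases in H2-DMb1 (chr17:34153099-34153127) and 20 bases in H2-Eb1 (chr17:34305778-34305805).
H2-DMb1: AACTGATGatgctaggctgattcactcag
H2-Eb1: AACTGATGatgctggactcctttgatgc

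Both strands were searched for TGATTGG and for AACNGATG, and the matches of the members do not overlap. Over all 32851 RefSeq windows from 250 bases before to 50 bases after a start, 7.82% held a Y box, 2.32% an X box and 0.186% both. Of the 4 members with an entry, 3 held a Y box and 2 held both, while the 2 windows of H2-DMa held neither. Those windows, chr17:34122582-34122881 and chr17:34125268-34125567, lie inside the gene as GENCODE gives it (chr17:34119541-34139101). The bases before its GENCODE start were thus not searched. A match is a match of letters and not a measured binding site, and a promoter without a match may hold a box of other letters. All bases are those of the reference build and were not read from the NOD cells of these grafts. H2-Ab1, Cd74 and Ciita had no entry.

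The members were followed in each annotated antigen-presenting type on its own: 7179 macrophages, 2345 monocytes, 1104 dendritic cells (DC) and 35 B cells. UMIs were summed per graft and type, and a graft entered with at least 10 cells of the type, which gave all 16 grafts for macrophages (107 to 1178 cells each) and DC (12 to 147 cells) and 15 grafts for monocytes. WT day 17 replicate 2 had 7 monocytes and was left out of that type, and no graft had 10 B cells. The graft totals over all types ran from 1742746 to 9729233 UMIs, and 42 cell barcodes occurred in more than 1 library. Levels are given in CPM, the UMIs of a gene per 1000000 UMIs of that graft and type. The type labels went with their markers. The summed level of 8 macrophage markers was 8731 CPM in macrophages, against 1502 in monocytes and 119.7 in DC, and that of 9 DC markers was 1308 in DC, against 118 in macrophages and 105.3 in monocytes. Monocytes led in 6 monocyte markers with 3203 CPM, against 1490 in macrophages. Of 4 beta cell markers, Ins1, Iapp and Chga had 0 UMIs in macrophages and all 4 had 0 in DC.

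Macrophages and DC carried the members at the highest levels of all types with a tested graft. Cd74, the most counted member, averaged 14400 ± 2610 CPM in DC (SD, n = 16), 14130 ± 1783 in macrophages (n = 16) and 8790 ± 2292 in monocytes (n = 15). H2-Aa averaged 8353 ± 1547 in DC, 7671 ± 1389 in macrophages and 4133 ± 1075 in monocytes. DC and macrophages thus differed by less than the spread over grafts, and monocytes lay below both. H2-Ab1 (6644 ± 1177 in DC, 5898 ± 666.6 in macrophages, 3430 ± 1071 in monocytes) and H2-Eb1 (6660 ± 1391, 6101 ± 989.9 and 3094 ± 979.7) held the same order. The H2-DM chains and Ciita differed less between the types. H2-DMa averaged 647.9 ± 128.5 in DC, 689.9 ± 80.64 in macrophages and 553.5 ± 159.3 in monocytes, and H2-DMb1 averaged 424.7 ± 94.7, 384.9 ± 47.71 and 349.2 ± 117.3. Ciita averaged 89.4 ± 31, 75.18 ± 25.52 and 66.65 ± 23.57. The types were annotated from the same genes, so these levels are a description with no test. H2-DMb1 has a near-identical neighbour, H2-DMb2, and reads of the pair may have been split or lost in counting.

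**Figure D1:**
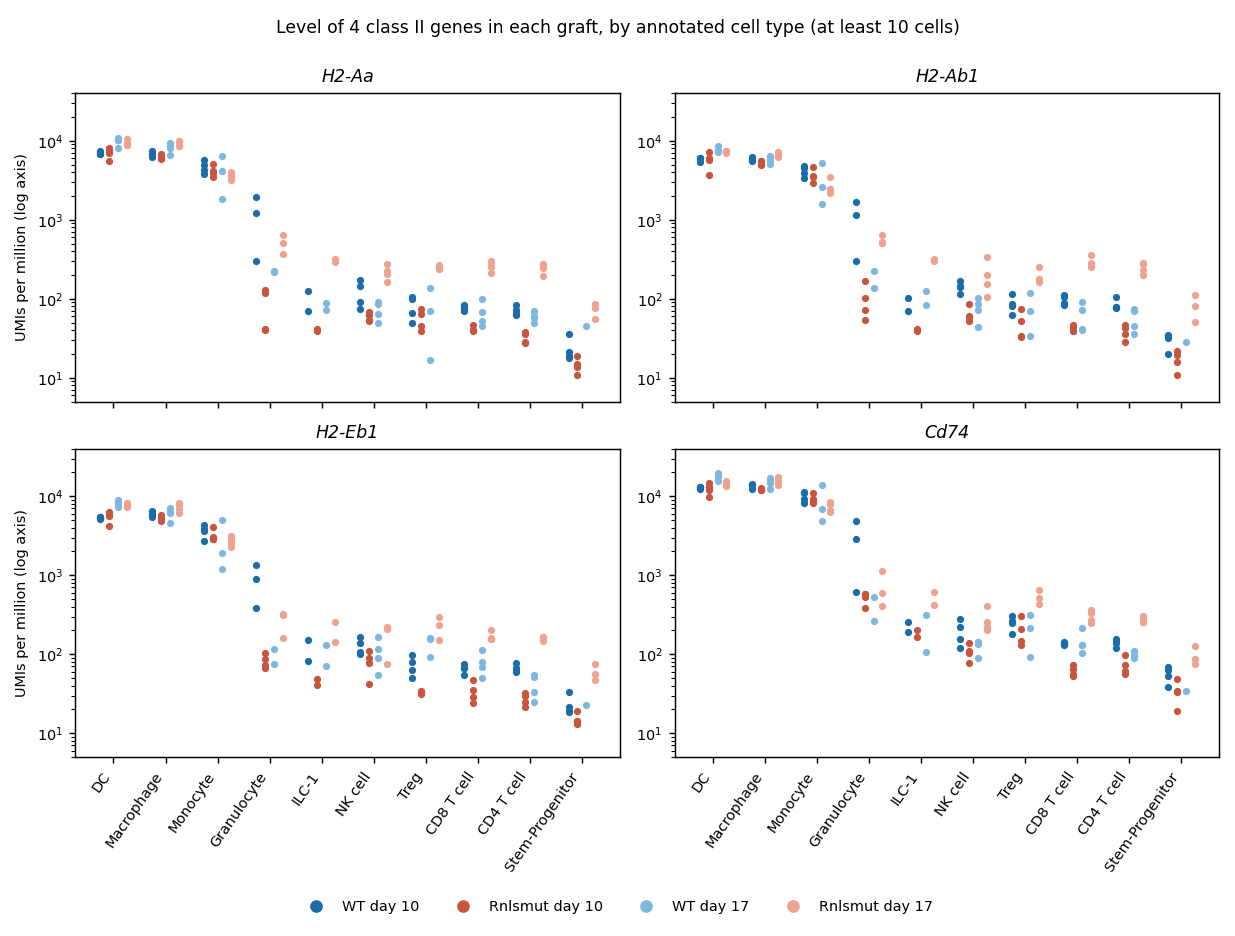
Level of H2-Aa, H2-Ab1, H2-Eb1 and Cd74 (CPM, log axis) in each graft with at least 10 cells of the annotated type, coloured by genotype and day; grafts at 0 are not drawn. Cd74 averaged 14400 in DC, 14130 in macrophages and 8790 in monocytes, against 161.6 in CD8 T cells.

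Ciita lies outside the MHC at chr16:10480059-10528418 and Cd74 at chr18:60803848-60812652, both on the plus strand. Outside the antigen-presenting types the transcripts were scarce. CD8 T cells, which should lack these genes and so give the background of free RNA, averaged 161.6 CPM of Cd74 and 0.6685 of Ciita. In those cells the 4 most counted members stood at 22.5% H2-Aa, 25.4% H2-Ab1, 17.9% H2-Eb1 and 34.2% Cd74 of their sum, and in macrophages at 23%, 17.5%, 17.8% and 41.6%. The CD8 T cell level of H2-Ab1 differed between libraries, at 97.43 ± 13.99 in WT day 10, 42.28 ± 3.465 in Rnlsmut day 10, 60.62 ± 24.27 in WT day 17 and 289.7 ± 44.19 in Rnlsmut day 17 (n = 4 each). Taking each graft's CD8 T cell level away from its antigen-presenting cells, an alternative chosen after seeing these values, changed no count of calls given below. Granulocytes averaged 1114 ± 1380 CPM of Cd74 (n = 12), with the SD above the mean. The 35 B cells, pooled over grafts, held 1582 UMIs of Cd74, 412 of H2-Aa, 298 of H2-Ab1, 366 of H2-Eb1 and 6 of Ciita.

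Nearly all macrophages and DC had a Cd74 UMI (99.6% of each), as did 97.1% of monocytes and 26.4% of CD8 T cells, at median depths of 4719, 6282, 4530 and 2555 UMIs per cell. Ciita was seen in 31% of macrophages (95% exact binomial interval 29.9% to 32%), 38.4% of DC (35.5% to 41.3%) and 25.1% of monocytes (23.3% to 26.9%), against 0.145% of CD8 T cells (0.0471% to 0.338%). These intervals cover counting error only. With every cell thinned to 1000 UMIs, Ciita was seen in 7.95% of macrophages, 8.42% of DC, 6.52% of monocytes and 0.087% of CD8 T cells, so the antigen-presenting types stood closer at equal depth.

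Macrophages held most class II transcripts. They were 32% of all cells and held 69.1% of all H2-Ab1 UMIs, while DC were 4.92% of cells with 16.1% of the UMIs and monocytes 10.4% of cells with 13.6%. For the other members the macrophage share ran from 63.8% (H2-DMb1) to 71.4% (H2-Aa). Macrophages held 48.1% of H2-Ab1 UMIs in WT day 10, 52.3% in Rnlsmut day 10, 81.6% in WT day 17 and 89.6% in Rnlsmut day 17, and monocytes held 27.7% and 26.7% at day 10 and 2.67% and 1.02% at day 17 in WT and Rnlsmut grafts. These shares were not tested. Over all CD45+ cells, H2-Ab1 averaged 2735 ± 283.7 CPM in WT day 10, 2125 ± 234.6 in Rnlsmut day 10, 4031 ± 1012 in WT day 17 and 5070 ± 213 in Rnlsmut day 17 (n = 4 each). Such a mean over all cells moves with the share of each type, so the comparisons below were made within types.

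The study's own contrast, Rnlsmut against WT, asks whether antigen-presenting cells of mutant grafts carry other amounts of class II transcript. In macrophages at day 10, H2-Ab1 was at 5481, 5769, 5835 and 6268 CPM in the 4 WT grafts and at 5034, 4932, 5546 and 5498 in the 4 Rnlsmut grafts. At day 17 it was at 5547, 6072, 5039 and 6472 in WT and at 6314, 6790, 6560 and 7218 in Rnlsmut grafts. Rnlsmut grafts lay mostly below WT at day 10 and mostly above WT at day 17, with overlap at both days. The fitted log2 fold change of H2-Ab1 was -0.18 (SE 0.11, adjusted p = 0.7747) at day 10 and 0.23 (SE 0.11, adjusted p = 0.8128) at day 17 in edgeR's quasi-likelihood test. The other chain genes and Cd74 pointed the same ways, from -0.18 (Cd74, H2-Eb1) to -0.16 (H2-Aa) at day 10 and from 0.06 (Cd74) to 0.27 (H2-Eb1) at day 17. Ciita stood at -0.41 (SE 0.21) at day 10 and 0.21 (SE 0.19) at day 17, and with cells thinned to 1000 UMIs the day 10 value was 0.03 (adjusted p = 0.9993).

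None of the 7 members was called between genotypes in macrophages at a Benjamini-Hochberg adjusted p of 0.05 over the 9331 genes tested, and hardly any gene was. Of all genes, 0.0322% were called at day 10, 0% at day 17 and 0% over both days. At an unadjusted p of 0.05, edgeR had 0 members in each of these 3 contrasts and DESeq2 had 0, 1 and 0, with 0 called. Over both days the members ran from -0.11 (H2-DMb1) to 0.07 (H2-DMa). The difference of the genotype contrasts between the days was 0.41 for H2-Ab1 (SE 0.15, adjusted p = 0.4321), 0.45 for H2-Eb1 (SE 0.20, adjusted p = 0.4937) and 0.63 for Ciita (SE 0.28, adjusted p = 0.5021) in edgeR. In that comparison 0 members and 0.0322% of all genes were called in edgeR, and DESeq2 called 0 members. At an unadjusted p under 0.05 there were 3 members in either tool, beside 873 of all 9331 genes in edgeR. An exact permutation test of the genotype within days (two-sided, 4900 assignments) gave p = 0.002449 for H2-Ab1, 0.02449 for H2-Eb1 and 0.03184 for H2-Aa, unadjusted, among 126 such tests of members, types and comparisons. Shuffling the genotype within days assumes no genotype difference at either day, so the test is not one of the difference of the contrasts alone. The permutation used CPM, without the TMM scaling of the fits. Macrophages of Rnlsmut day 17 were also the shallowest, at medians of 3276 to 3830 UMIs per cell per graft against 6772 to 8049 in WT day 17. With cells thinned to 1000 UMIs the H2-Ab1 difference was 0.45 (adjusted p = 0.5659), and over 10 alternatives it ran from 0.35 to 0.45 with an adjusted p from 0.2494 to 0.7736.

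**Figure D2:**
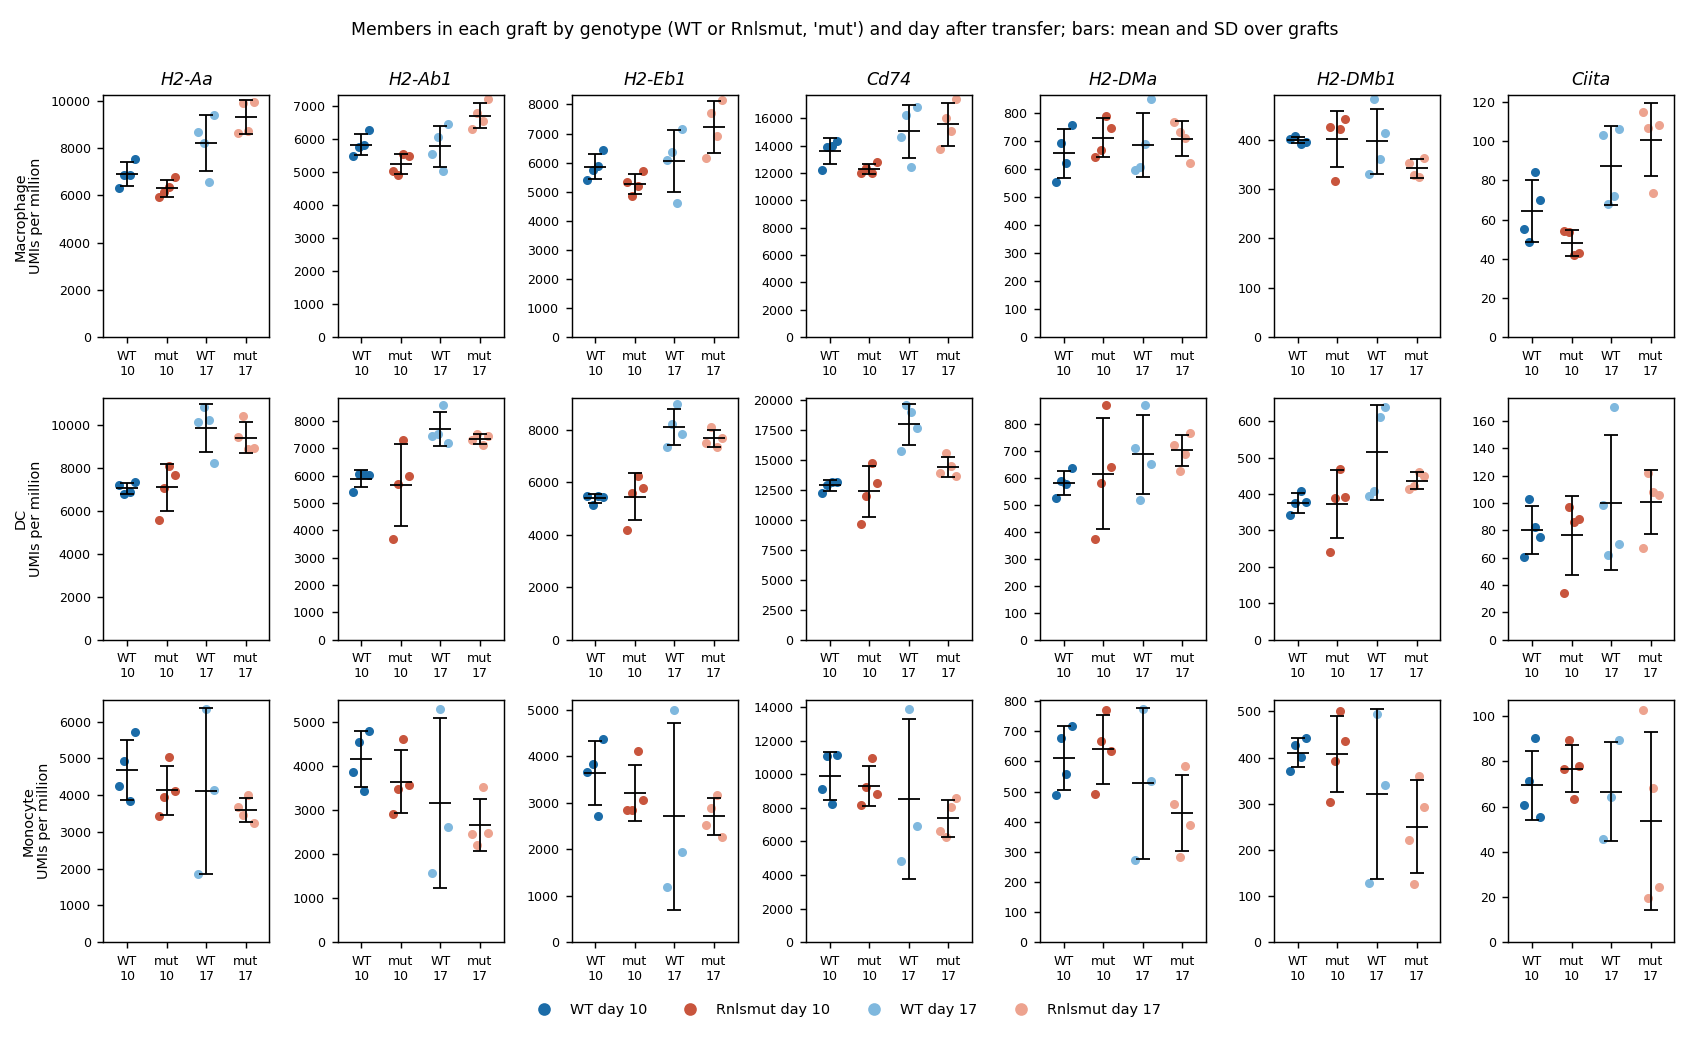
CPM of each member in every graft with at least 10 cells, by genotype and day, in macrophages, DC and monocytes, with the mean and SD of each group as bars. In macrophages, H2-Ab1 was between 6314 and 7218 in Rnlsmut day 17 and between 4932 and 5546 in Rnlsmut day 10, while WT day 17 overlapped both and WT day 10 overlapped Rnlsmut day 10.

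In DC the genotypes were closer at day 10, where the members ran from a log2 fold change of -0.11 (Ciita) to 0.06 (H2-DMa). At day 17 Cd74 was at 15730, 19540, 19010 and 17620 CPM in WT grafts and at 13880, 15600, 14450 and 13660 in Rnlsmut grafts. These groups did not overlap. The share of all genes whose groups did not overlap is not given, here or for the day contrasts below. The fitted difference was -0.34 (SE 0.12), but with an adjusted p of 0.7638 in edgeR it was not called, and the exact permutation test gave its smallest value for 4 against 4 grafts, p = 0.02857. Median depth per DC was 10000 to 15770 UMIs in the WT day 17 grafts and 5506 to 6966 in the Rnlsmut day 17 grafts. The other members lay between -0.26 (H2-DMb1) and -0.0049 (H2-DMa) at day 17. In edgeR 0 members were called at either day, over both days or for the difference, and DESeq2 called 0. Of all 5700 genes tested in DC, 0.0175% were called at day 10, 0.0175% at day 17, 0% over both days and 0.0351% for the difference. At an unadjusted p of 0.05, 0 members passed at day 10, 1 at day 17, 1 over both days (Cd74 both times) and 0 for the difference in edgeR, with the same counts in DESeq2. Of all 5700 genes, 308, 333, 315 and 343 passed that level in edgeR, in the same order.

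In monocytes the members ran from -0.22 (H2-Ab1) to 0.12 (Ciita) at day 10 and from -0.39 (H2-DMb1) to 0.05 (Ciita) at day 17. edgeR and DESeq2 called 0 members in each of the 4 genotype comparisons, and 0 reached an unadjusted p of 0.05 in either tool. The share of all 8092 genes called was 0% in each of the 4. The SEs were 0.22 to 0.30 at day 10 and 0.25 to 0.45 at day 17.

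**Figure D3:**
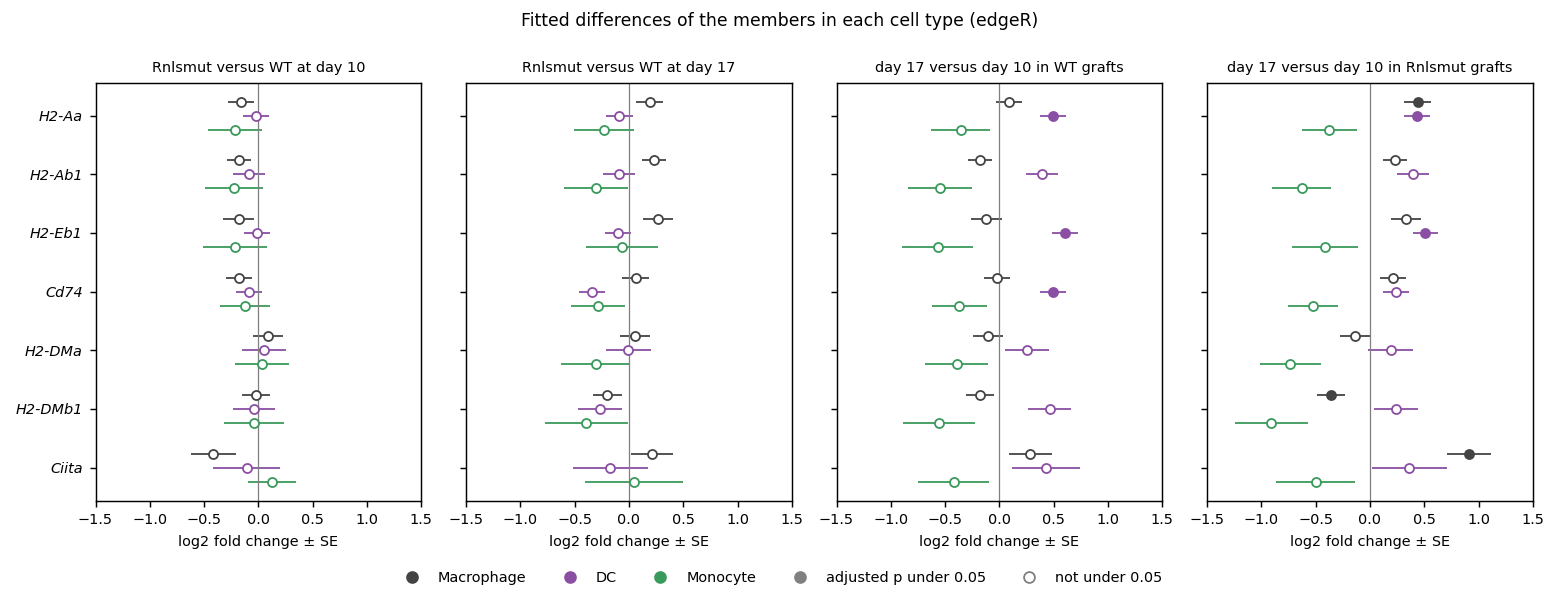
Fitted log2 fold change and SE (edgeR) of each member in macrophages, DC and monocytes, for Rnlsmut against WT at day 10 and day 17 and for day 17 against day 10 in WT and in Rnlsmut grafts; filled points have an adjusted p under 0.05. No genotype contrast has a filled point, and the filled points of the day contrasts are 3 members in WT DC, 2 in Rnlsmut DC and 3 in Rnlsmut macrophages.

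Between the days, 3 members rose in DC of WT grafts and 2 in DC of Rnlsmut grafts. H2-Eb1 in DC was at 5498, 5120, 5482 and 5456 CPM in WT day 10 and at 7368, 8227, 8991 and 7862 in WT day 17. In Rnlsmut grafts it was at 4185, 5602, 6262 and 5803 at day 10 and at 7522, 8127, 7349 and 7712 at day 17. The days did not overlap in either genotype, in comparisons that called 10.2% (WT) and 14.6% (Rnlsmut) of all genes. In WT grafts H2-Eb1 rose by 0.60 on the log2 scale (SE 0.12, adjusted p = 0.00296), Cd74 by 0.50 (SE 0.12, adjusted p = 0.01209) and H2-Aa by 0.49 (SE 0.12, adjusted p = 0.01271) in edgeR. In Rnlsmut grafts H2-Eb1 rose by 0.51 (SE 0.12, adjusted p = 0.007251) and H2-Aa by 0.43 (SE 0.12, adjusted p = 0.0225), while Cd74 was at 0.24 (adjusted p = 0.187). The day contrasts of the genotypes were not shown to differ for any member in DC, with an adjusted p of at least 0.8867 for the difference.

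H2-Aa in DC was at 7183, 6802, 6888 and 7360 in WT day 10, 10130, 10840, 10240 and 8217 in WT day 17, 5559, 7040, 8098 and 7651 in Rnlsmut day 10, and 9432, 10410, 8875 and 8918 in Rnlsmut day 17. Each day 17 graft was above each day 10 graft of its genotype. Thus 3 of 7 members were called in WT DC, all higher, where 10.2% of all genes were called and 5.39% were called higher. In Rnlsmut DC 2 of 7 were called, both higher, where the shares were 14.6% and 7.53%. H2-Ab1, the partner chain of H2-Aa, was at 0.40 (adjusted p = 0.09174) in WT and 0.39 (adjusted p = 0.08159) in Rnlsmut DC, and H2-DMa, H2-DMb1 and Ciita ran from 0.19 to 0.46 with adjusted p-values from 0.1362 to 0.5802. The median over all 7 members was 0.46 in WT and 0.36 in Rnlsmut DC, beside 0.02 and -0.02 over all genes tested. Without the filter on low counts 1 member remained called in WT DC (H2-Eb1) and 0 in Rnlsmut DC. Leaving out 1 graft left 1 to 4 members called in Rnlsmut DC, with 1 without Rnlsmut day 10 replicate 1 or Rnlsmut day 17 replicate 1 or 2, and 4 without Rnlsmut day 10 replicate 3. In WT DC the call of H2-Aa was lost without WT day 10 replicate 3 (adjusted p = 0.05015). For these fits without the filter or without 1 graft, the share of all genes called is not given here.

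In macrophages of Rnlsmut grafts 2 members rose and 1 fell between the days. Ciita, the transactivator, was at 54, 53.51, 41.88 and 43.07 CPM in Rnlsmut day 10 and at 114.9, 106.7, 73.35 and 108.3 in Rnlsmut day 17. H2-Aa was at 5911, 6134, 6343 and 6756 at day 10 and at 8647, 9896, 8711 and 9947 at day 17 in those grafts. Neither gene overlapped between the days, in a comparison that called 42% of all genes. Ciita rose by 0.91 on the log2 scale (SE 0.20, adjusted p = 0.001729) and H2-Aa by 0.44 (SE 0.12, adjusted p = 0.00834) in edgeR, and both were called under all 10 alternatives with a test. H2-DMb1, a chain of the peptide exchanger, fell by 0.36 (SE 0.13, adjusted p = 0.03668), from 426.3, 316.3, 421.2 and 442.1 to 353.4, 328.3, 324.2 and 363.2, and its groups overlapped through the day 10 graft at 316.3. Its call was lost without Rnlsmut day 10 replicate 1, 3 or 4 or Rnlsmut day 17 replicate 1, 2 or 3, without the filter on low counts, with thinned cells and with library totals as the only scaling.

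H2-Eb1 was at 0.33 (adjusted p = 0.06495), H2-Ab1 at 0.23 (adjusted p = 0.1006), Cd74 at 0.21 (adjusted p = 0.1653) and H2-DMa at -0.14 (adjusted p = 0.4526) in macrophages of Rnlsmut grafts. So 3 of 7 members were called, 2 higher and 1 lower, in a comparison where 42% of all 9331 genes were called, 20.7% higher and 21.4% lower, and the members' share lay near that background. DESeq2 called 3, and 4 members had an unadjusted p under 0.05 in edgeR, beside 4662 of all 9331 genes. The scaling between grafts mattered here: with UMI totals in place of TMM factors, chosen after seeing the data, 5 members were called, all higher, with H2-Ab1 at 0.36, H2-Eb1 at 0.46, Cd74 at 0.34, H2-Aa at 0.57 and Ciita at 1.04. That scaling moved the median of all genes from 0.02 to 0.15 and the split of all calls from 1928 higher and 1995 lower to 2462 and 1435.

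In macrophages of WT grafts 0 of 7 members were called between the days, where 25.1% of all genes were, and 0 reached an unadjusted p of 0.05 in edgeR or a call in DESeq2. H2-Aa was at 6297, 6856, 6848 and 7535 in WT day 10 and at 8694, 8196, 6575 and 9391 in WT day 17, and Ciita was at 55.11, 48.41, 84.04 and 69.76 and then at 103.1, 68.17, 72.18 and 106.4. Both overlapped between the days. The fitted changes ran from -0.18 (H2-Ab1, H2-DMb1) to 0.28 (Ciita, SE 0.20, adjusted p = 0.316). The difference between the genotypes in this change is the same contrast as the difference given above for H2-Ab1, H2-Eb1 and Ciita, and it was not called. Under library totals the median of all genes in WT macrophages moved from 0.03 to 0.21, and the signs of H2-Eb1 (0.05), Cd74 (0.15) and H2-DMa (0.07) turned.

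In monocytes the fitted change between the days was below 0 for all 7 members in both genotypes, with no member called. H2-DMb1 was at 303.1, 391.9, 500.6 and 436.5 CPM in Rnlsmut day 10 and at 221.3, 126.4, 361.1 and 292.1 in Rnlsmut day 17. H2-Ab1 was at 2909, 3483, 4626 and 3581 and then at 2450, 2217, 3533 and 2483 in those grafts. Both overlapped between the days. The fitted change was -0.91 for H2-DMb1 (SE 0.34, adjusted p = 0.1417), -0.73 for H2-DMa (adjusted p = 0.1568), -0.63 for H2-Ab1 (adjusted p = 0.2145) and -0.53 for Cd74 (adjusted p = 0.2233), and -0.38 for H2-Aa was the smallest. In edgeR 0 of 7 members were called in Rnlsmut monocytes, where 3.19% of all genes were. At an unadjusted p under 0.05 edgeR had 4 members, beside 1513 of all 8092 genes tested. DESeq2 called 0 members, with 2 at that unadjusted level. Without the filter on low counts 5 members were called lower in Rnlsmut monocytes and 2 in WT monocytes, where 4.13% and 3.78% of all genes were called. Rnlsmut day 17 grafts held 16 to 39 monocytes each.

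In WT monocytes 1 graft decided the result. H2-Eb1 was at 3666, 3835, 2717 and 4366 in WT day 10 and at 1193, 4997 and 1931 in replicates 1, 3 and 4 of WT day 17. Replicate 3 was above every day 10 graft and the other two were below all of them. With it, changes ran from -0.57 (H2-Eb1) to -0.36 (H2-Aa) and 0 of 7 members were called, where 3.84% of all genes were, with 0 members at an unadjusted p of 0.05 and 0 called by DESeq2. Without it, 6 of 7 were called lower, in a fit that called 15.3% of all genes and 7.98% lower, with H2-Eb1 at -1.55 (adjusted p = 0.000121), H2-DMb1 at -1.44 (adjusted p = 0.003575) and H2-Ab1 at -1.31 (adjusted p = 0.0005268). That fit kept only replicates 1 and 4 of WT day 17, with 91 and 10 monocytes. Median depth per monocyte was 10750 UMIs in replicate 3, against 4269 in replicate 1 and 4186 in replicate 4. All 24 monocytes of replicate 3 were in cluster 1 of the authors' clusters, against 23.1% in replicate 1 and 80% in replicate 4. In WT day 10 grafts (n = 4), cluster 1 (leading genes Fn1 and Vcan) averaged 4412 CPM of H2-Ab1, 442.9 of H2-DMb1 and 74.68 of Ciita, and cluster 14 (leading genes Ace, Spic and Cd300e) averaged 1981, 143.9 and 24.56. The mean share of cluster 14 was 17.7% of monocytes at day 10 and 32.3% at day 17 in WT, and 21.9% and 55.2% in Rnlsmut grafts, and its part in the lower levels was not tested.

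**Figure D4:**
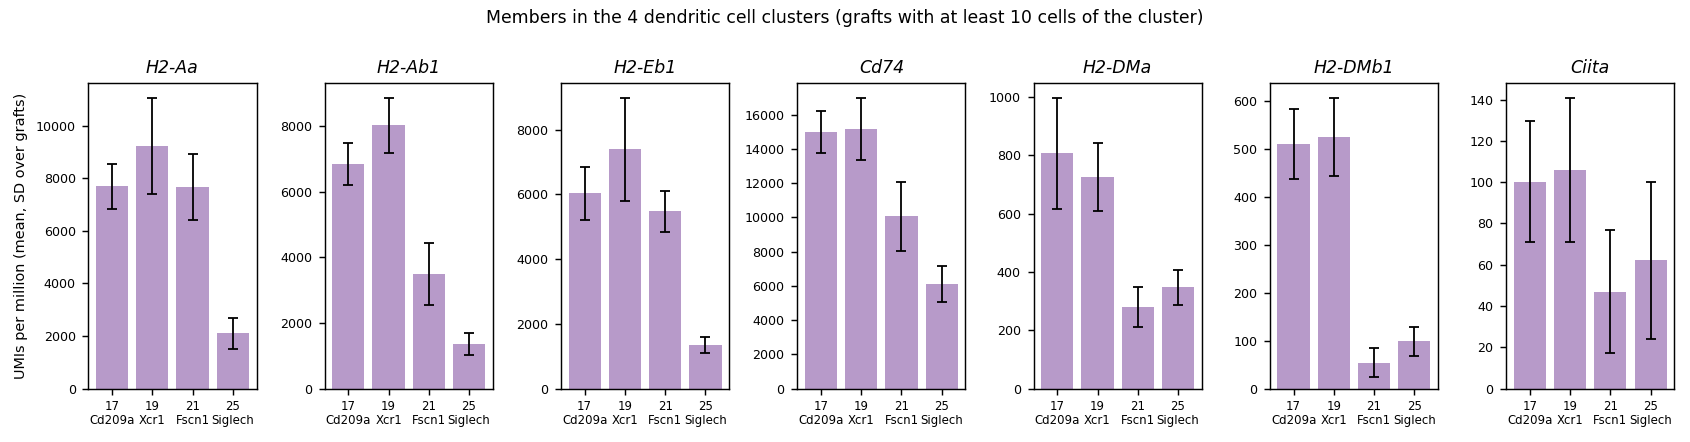
Mean and SD over grafts (CPM) of each member in the 4 DC clusters of the authors, each with 1 leading gene, over grafts with at least 10 cells of the cluster (8, 12, 8 and 4 grafts). These are day 10 grafts in clusters 17, 21 and 25, the last WT alone, while 6 of the 12 in cluster 19 are day 17 grafts. Cluster 21 keeps H2-Aa at 7663 while H2-DMb1 is at 53.94, and cluster 25 is lowest in H2-Aa, H2-Ab1, H2-Eb1 and Cd74.

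The 4 DC clusters differed in which members they carried. They are compared in WT day 10 grafts, the group with values for all of them (n = 3 in cluster 19 and 4 in the others). Cluster 17 (Cd209a, Mgl2) and cluster 19 (Xcr1, Itgae) had H2-Aa at 7828 and 7144, H2-Ab1 at 6820 and 7136, H2-DMa at 766 and 608.6, and H2-DMb1 at 473.8 and 491 CPM. Cluster 21 (Fscn1, Ccl5, Socs2) had an H2-Aa level of 8132 ± 1014, close to the 7828 ± 907.8 of cluster 17, but H2-Ab1 at 4014, H2-DMa at 288.5, H2-DMb1 at 73.03 and Ciita at 61.98. Fscn1 is known from mature, migrating DC. Cluster 25 (Siglech, Ly6d, genes of plasmacytoid DC) was lowest in the chains, with H2-Aa at 2101 and H2-Ab1 at 1354, and had Ciita at 62.1. In each cluster these are levels with no test, since the clusters were made from the same cells.

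The makeup of DC also differed between the days. Cluster 19 averaged 20.6% of DC at day 10 and 52% at day 17 in WT, and 19.1% and 59.8% in Rnlsmut grafts, while cluster 17 averaged 42.8% and 19.6%, and 38.9% and 11.3%. Within cluster 19 alone, H2-Eb1 averaged 5719 at day 10 and 8458 at day 17 in WT, and 6185 and 9015 in Rnlsmut grafts, from 3, 2, 3 and 4 grafts with at least 10 of its cells. Pooled over grafts, H2-Eb1 was higher at day 17 in 4 of 4 clusters in WT and 3 of 4 in Rnlsmut, and H2-Aa in 3 of 4 in both. At day 17, clusters 17, 21 and 25 held only 19, 11 and 11 cells in WT and 22, 19 and 28 in Rnlsmut grafts. With the clusters of each graft weighted equally, the WT change of H2-Eb1 was 0.59 and that of H2-Aa 0.45, and in Rnlsmut grafts they were 0.29 and 0.21. The part of the cluster shares in the change was not tested.

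Among macrophages, cluster 4 averaged 51.5% at day 10 and 7.3% at day 17 in WT, and 67.9% and 4.89% in Rnlsmut grafts, and cluster 2 (Apoe, Ccl8, Cxcl13) averaged 5.43% and 28.6%, and 1.76% and 42.2%. In WT day 10 grafts cluster 2 averaged 7728 ± 376.6 CPM of H2-Aa and 271.3 ± 23.85 of H2-DMb1 (n = 3), and cluster 4 averaged 7079 ± 539 and 442.3 ± 17.6 (n = 4). Within clusters pooled over grafts, H2-Aa, H2-Ab1, H2-Eb1 and Cd74 were each higher at day 17 in 6 of 6 clusters of Rnlsmut grafts, with median log2 ratios of 0.74, 0.40, 0.63 and 0.32. In WT grafts H2-Aa was higher in 6 of 6 (median 0.16), and H2-Ab1 in 2, H2-Eb1 in 3 and Cd74 in 3 of 6. These ratios are of CPM, without the TMM scaling of the fits. Over all macrophages, library totals moved the median of all genes from 0.02 to 0.15 in Rnlsmut grafts and from 0.03 to 0.21 in WT grafts. The share of all genes higher in 6 of 6 clusters is not given here. With clusters weighted equally the change of H2-Aa in Rnlsmut macrophages was 0.69 and that of H2-DMb1 -0.16. Some of these clusters held few cells over all grafts of a group. In Rnlsmut day 10, clusters 2, 10 and 12 held 16, 12 and 18 cells. At day 17, cluster 13 held 22 cells in Rnlsmut and 20 in WT grafts. These are descriptions with no test.

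The level per cell was read after thinning each cell to 1000 UMIs, as the sum of H2-Aa, H2-Ab1, H2-Eb1 and Cd74. The mean of the graft medians in macrophages was 31.88 ± 2.25 in WT day 10, 28 ± 0.8165 in Rnlsmut day 10, 32.75 ± 4.193 in WT day 17 and 38.5 ± 3.416 in Rnlsmut day 17 (SD, n = 4 each). In DC it was 29.5 ± 1.915, 27.75 ± 7.089, 42.5 ± 4.378 and 40.75 ± 3.594. In monocytes it was 20.25 ± 4.031, 16.75 ± 4.5, 14.67 ± 10.61 (n = 3) and 9.375 ± 4.498. By this measure the typical macrophage and DC, and not only a few cells, thus stood higher at day 17 in Rnlsmut grafts. The measure scales each cell by its own UMIs, without TMM. In the fits with TMM, only H2-Aa of the 4 summed genes was called in those macrophages. DC in both genotypes differed between days by more than the spread of the grafts. The macrophage genotype differences were -3.875 at day 10 and 5.75 at day 17, and those of DC were -1.75 at both days.

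**Figure D5:**
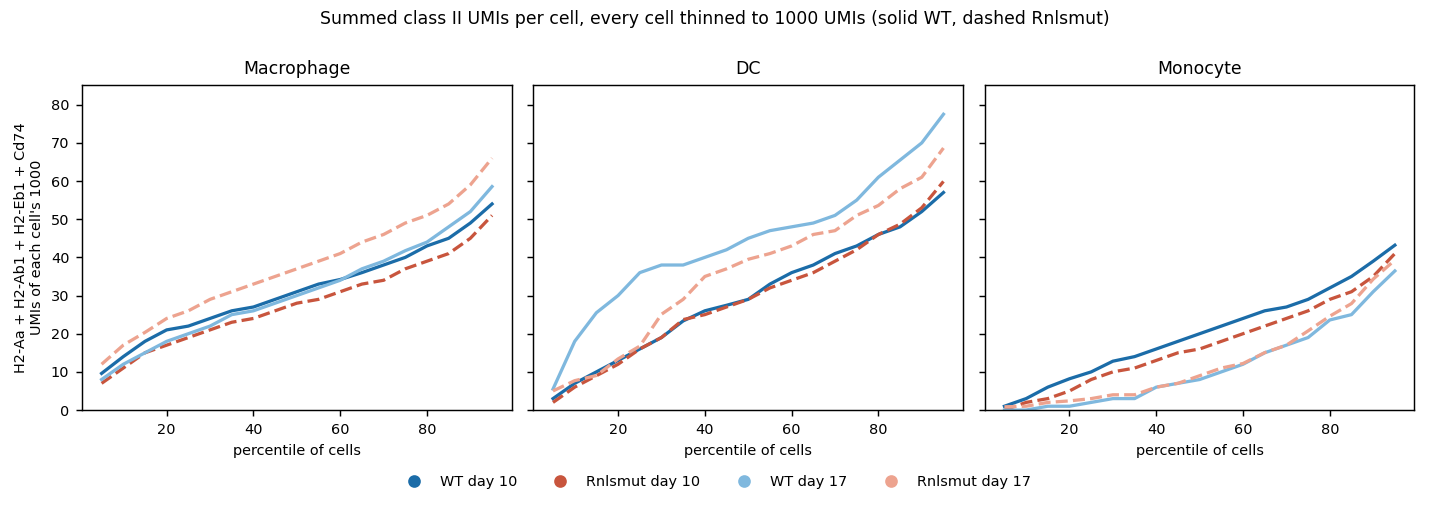
Percentiles 5 to 95 over cells of the summed UMIs of H2-Aa, H2-Ab1, H2-Eb1 and Cd74 among 1000 UMIs of each cell, for the 4 groups (solid WT, dashed Rnlsmut) in macrophages, DC and monocytes, with cells of the grafts pooled. In macrophages the Rnlsmut day 17 curve is above and the Rnlsmut day 10 curve below both WT curves from the middle of the cells upward, and in monocytes both day 17 curves are below both day 10 curves over most percentiles.

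The rest of the pathway was read from a list of 39 names, of which 35 were in the table and 33 passed the filter on low counts in macrophages, 31 in DC and 30 in monocytes. H2-Ea and H2-Ea-ps, the I-E alpha chain, and the newer names Marchf1 and Marchf8 were not among the table's names. In edgeR 0 listed genes were called between genotypes in any type at day 10, day 17, over both days or for the difference, with 0 to 3 at an unadjusted p under 0.05 in each. The counts of 3 were in DC at day 17 and for the difference, beside 333 and 343 of all 5700 genes. Between the days, macrophages had 5 genes higher and 6 lower of 33 in WT and 7 higher and 9 lower in Rnlsmut grafts, where 25.1% and 42% of all genes were called. DC had 4 and 2 of 31 in WT and 4 and 5 in Rnlsmut, beside 10.2% and 14.6% of all genes, and monocytes had 1 and 0 of 30 in WT and 1 and 1 in Rnlsmut, beside 3.84% and 3.19%.

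Of the step from interferon gamma to Ciita, the receptor chain Ifngr1 rose in macrophages (0.64 in WT, 0.84 in Rnlsmut), DC (1.33 and 0.82) and monocytes (0.99 and 1.28). In macrophages of each genotype, 1 of the 6 genes of this step was called higher and 2 were called lower. Their median was -0.31 in WT and -0.33 in Rnlsmut macrophages, where 25.1% and 42% of all genes were called. Irf1, a transcription factor induced by interferon gamma, fell in DC (-0.96 and -0.98) and in WT macrophages (-0.56). The feedback inhibitor Socs1 was lower at -1.92 in WT (adjusted p = 0.0002411) and -2.0 in Rnlsmut macrophages (adjusted p = 5.605e-05). Of the 7 promoter factors tested in macrophages, 0 were called in WT and 2 in Rnlsmut grafts, Creb1 at 0.41 and Rfxap, a subunit of RFX, at -0.55, and of the 5 tested in DC and in monocytes 0 were called.

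Among genes of endosomal processing, the thiol reductase Ifi30 fell in macrophages (-1.05 in WT, -1.12 in Rnlsmut), in Rnlsmut DC (-0.93, adjusted p = 0.0007399) and in Rnlsmut monocytes (-1.11). The proteases Lgmn (0.69 and 0.87) and Ctsd (0.55 and 0.56) rose in macrophages of both genotypes, and Ctsb rose in Rnlsmut macrophages by 0.97 (adjusted p = 0.001192). Of the genes that set how long class II stays at the surface, Cd83, which stabilizes it, rose in macrophages (0.77 and 0.96) and in WT DC by 0.60, and March1, a ligase that removes it, rose in DC by 1.69 in WT and 2.03 in Rnlsmut grafts. H2-Oa, a chain of the H2-DM inhibitor DO, rose in DC by 1.15 and 1.23, and its partner H2-Ob rose in Rnlsmut DC by 1.54. H2-Eb2, a further class II beta chain with 145 UMIs in macrophages in all, was lower at -2.26 in Rnlsmut macrophages (adjusted p = 0.00761).

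Of the signals beside class II, the costimulatory receptor Cd40 fell in macrophages (-0.99 in WT, -1.43 in Rnlsmut, adjusted p = 2.027e-05) and in DC (-1.31 and -1.40). Cd274, which encodes PD-L1, fell in macrophages (-1.12 and -1.27) and in Rnlsmut DC (-1.39), and the costimulatory ligand Cd80 fell in Rnlsmut macrophages (-0.81). Tgfbr2, a receptor chain for TGF-beta, rose in macrophages by 1.01 in WT (adjusted p = 0.01957) and 1.38 in Rnlsmut grafts (adjusted p = 0.001822). The median log2 fold change over the 7 members was 0.23 in Rnlsmut macrophages and -0.10 in WT macrophages, beside 0.02 and 0.03 over all genes tested.

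The genes most like the members were ranked by Pearson r with the mean log2 level of H2-Aa, H2-Ab1, H2-Eb1 and Cd74. Over the 10 cell types with a tested graft, Atp6ap2 (0.989), Psap (0.988), Tbxas1 (0.98), Aif1 (0.98) and Sdc3 (0.976) came first of 3276 genes with at least 50 CPM. Over the 16 grafts within macrophages, Sec14l1 (0.869), Rgs10 (0.858), Cd83 (0.848), Adcy7 (0.846) and Ap1s2 (0.845) came first of 3156 genes. The points share libraries and depth, so these values only describe the order.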

How the data were processed

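Per the labels, living CD45+ cells of NIT-1 grafts were sorted, marked with 1 of 4 hashtags and sequenced in 4 droplet libraries. The deposited table holds UMI counts of every gene in every cell, not normalized, with the library, hashtag, cluster and type that the authors gave the cell. The submitters' processing notes name Cell Ranger and mm10, and versions are not given in the sources used here. Grafts, told apart by hashtag within a library, served as replicates, so p-values measure only the spread between grafts of the same libraries. UMIs were summed per graft and annotated type (at least 10 cells), and levels are UMIs per 1000000 UMIs of that graft and type (CPM). Transcript ends were counted, so levels of different genes are not scaled by length and are not compared with each other as molecule numbers.

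The quasi-likelihood test of edgeR 4.0.16 (R 4.3.3) was run on these sums after filterByExpr and TMM scaling, with the 4 groups in 1 fit per type and Benjamini-Hochberg adjustment over all genes of the type. DESeq2 1.42.0 was the alternative tool, and single members were also tested with exact permutation over grafts (Python 3.11.15, numpy 2.4.6, pandas 2.3.3). The median of the summed class II level per cell is given with no p. All 7 members are named in each type, and of the pathway list up to 5 called genes per type and comparison by p, with others of the list named after their values were seen. Called genes of the list that are not named stand only in the counts, and 1 of them is not reported here. The members, the lists and the rules were chosen with earlier results of these data known. The fits recovered known changes put into 200 genes of simulated counts, in the genotype contrast at day 10 and with an equal spread for every gene. These changes were larger than any fitted to a member with all grafts, so recovery of smaller ones was not tested. WT and Rnlsmut grafts of a day shared hosts, but the labels do not say that grafts of a hashtag number share a mouse. Of 23 pairs of grafts with the same number, 7 deviated from their group means together with r above 0.1. Of pairs with different numbers, 7 of 24 in macrophages, 4 of 21 in monocytes and 3 of 24 in DC did so. This cannot settle which grafts shared a mouse. The numbers were not taken as pairs in the main fit, so its genotype tests leave the shared hosts out. Cells with 2 or more T cell receptor UMIs, which may be doublets, were 0.39% of macrophages, 0.554% of monocytes and 0.362% of DC, and were left out as an alternative. Further alternatives were other minimum cell numbers, no filter on low counts, each day fitted alone, thinned cells, members left out of the library size, the hashtag number as a block and each graft left out. Library totals as the scaling and subtraction of the CD8 T cell level were chosen after seeing the data.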

Additional observations from a re-analysis of the deposited data

Results flagged for a closer look

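In 77 groups of 4 grafts (7 members, 3 types), 3 grafts stood far from the other grafts of their group, where chance gives about 1 in 20 groups. H2-Ab1 in DC of WT day 10 replicate 1 was at 5410 CPM (UMIs per 1000000), with the others at 6030 to 6052. H2-Eb1 in DC of WT day 10 replicate 2 was at 5120, with the others at 5456 to 5498. H2-DMb1 in macrophages of Rnlsmut day 10 replicate 2 was at 316.3, with the others at 421.2 to 442.1, and without that graft its change to day 17 was -0.46, against -0.36 with it.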

How the results depend on the processing

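The counts of members called kept within 1.5 times of those reported under 193 of 198 alternatives that kept all grafts, where a change from 2 to 3 is within that range. Most of the reported counts were 0. In the genotype comparisons at most 0.0351% of all genes were called, so a 0 there could hardly move. Each reported count above 0 moved further than 1.5 times under at least 1 of these alternatives. With library totals 5 members were called in macrophages of Rnlsmut grafts between the days. Without the filter on low counts, 2 were called in WT and 5 in Rnlsmut monocytes, and 1 in WT and 0 in Rnlsmut DC, and the cause was not tested. Leaving out each graft gave 0 to 6 members called between the days in WT monocytes and 1 to 4 in Rnlsmut DC, 2 to 3 in Rnlsmut macrophages and in WT DC, and 0 throughout in the other comparisons. Signs turned for single members. In macrophages with thinned cells, Ciita was at 0.0290 between genotypes at day 10, against -0.41 with all UMIs, and at 0.0407 over both days. Between the days in WT macrophages, library totals gave 0.0477 for H2-Eb1, 0.146 for Cd74 and 0.0679 for H2-DMa, and equal weights of clusters gave 0.0216 for H2-Eb1 and 0.0361 for Cd74. In Rnlsmut DC equal weights gave -0.0542 for H2-DMa and -0.0022 for H2-DMb1. Without 1 graft, values in macrophages ran from -0.0285 to 0.144 for Cd74 between genotypes at day 17, over both days from -0.0358 to 0.0619 for H2-Aa, from -0.0119 to 0.0639 for H2-Ab1 and from -0.0175 to 0.0987 for H2-Eb1, and between the days in WT from -0.0098 to 0.19 for H2-Aa and from -0.108 to 0.0645 for Cd74. Ciita in WT DC ran from -0.12 (without WT day 17 replicate 3) to 0.62 between the days, against 0.43 with all grafts. With the hashtag number as a replicate block, 3 members were called in Rnlsmut DC (H2-Ab1 at 0.43, adjusted p = 0.03581) and 4 in Rnlsmut macrophages (H2-Eb1 at 0.32, adjusted p = 0.04005), and no other count changed. The shares of all genes called in that fit are not given here. Nor are those in DC without the filter, or in DC and macrophages without 1 graft. In the main fits, the shares of all genes called between the days were 25.1% in WT and 42% in Rnlsmut macrophages. In the same order they were 10.2% and 14.6% in DC, and 3.84% and 3.19% in monocytes. Same-numbered grafts correlated between -0.241 and 0.335, and 7 of 23 correlated best with their own number. B cells were too few for any fit. Depth limits Ciita most, with 1 to 128 UMIs per graft in monocytes and 8 to 137 in DC.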
